A study of Mus musculus with 31 samples.

Results

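The comparison described here asked what 5-azacytidine added to interferon in blood stem cells that lack Dnmt3a. It used 7 of the 31 RNA-seq libraries of the study, chosen by their labels: 3 libraries of mice given both drugs (VFDM COMBO, libraries 2, 3 and 4) and 4 of mice given the interferon alone (VFDM IFN, libraries 1 to 4). The genotype given for both groups was SclCre;FF1;Dnmt3Δ/Δ;GFP. That is a Cre recombinase driven by stem cell elements of Scl and an inducible human JAK2 transgene with the mutation of myeloproliferative neoplasm. It also includes a deletion of Dnmt3a and a GFP reporter. Marrow with these alleles had been transplanted into wild-type mice with a 10-fold excess of wild-type marrow. Treatment began 4 weeks later and lasted 8 weeks. All 7 libraries came from mice on pegylated interferon alpha at 25 µg/kg under the skin each week, and the COMBO mice also received 5-azacytidine at 2 mg/kg into the abdomen each day. RNA was taken from sorted long-term haematopoietic stem cells (LT-HSCs), gated as lineage-negative, Sca1+, Kit+, CD150+ and CD48- bone marrow cells. The same step in 8 libraries without the Dnmt3a deletion (VF COMBO and VF IFN, 4 each, otherwise with the same alleles and doses) was used to test where the genotypes differed. Libraries of the deleted genotype given vehicle (VFDM V) or azacytidine alone (VFDM AZA, same dose) and the matching VF groups are quoted as reference levels, and 1 model was fitted to all 31 libraries. The labels give no age or sex, name no GFP or donor gate, and do not say whether a library is 1 mouse or several, so the p-values reflect only how far such libraries varied, and that variation may be technical.

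LT-HSCs sit at the top of blood formation, divide rarely and keep their state through transcription factors such as Hlf and Mecom and surface receptors such as the endothelial protein C receptor. Interferon alpha signals through the kinases JAK1 and TYK2 to antiviral genes and can drive stem cells out of rest, while azacytidine is built into nucleic acids, traps DNA methyltransferases and lowers DNA methylation. Dnmt3a, a de novo methyltransferase, helps stem cells to lose their self-renewal genes when they differentiate, and its loss is frequent in blood cancers.

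Each library held 17782394 (COMBO library 3) to 47242663 (IFN library 3) counts, so that 3 counts corresponded to between 0.0645 and 0.173 CPM, the count scaled by library size. Rows detected numbered 18450 to 21262 in COMBO and 20521 to 25962 in IFN libraries. Replicates differed by far more than counting error, and no pair agreed within sampling noise. The chi-square per degree of freedom was 39.5 to 56.7 between IFN libraries and 94.5 to 121 between COMBO libraries. The COMBO libraries thus differed more by this measure, while the model shared its estimate of the spread over all groups. Levels below are CPM per library, changes are log2 fold changes of COMBO over IFN with their standard errors, and a gene was called when its adjusted p was under 0.05 over the 22172 rows tested.

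The deleted gene was read in every library first. Dnmt3a (ENSMUSG00000020661, mm10 chromosome 12, 3806007 to 3914443) stood at 51.6, 23 and 57.0 CPM in COMBO libraries 2, 3 and 4 and at 104, 111, 162 and 102 CPM in IFN libraries 1 to 4. No COMBO library reached the lowest IFN library, and the library labelled VFDM IFN 3 was the highest of the 7. Without the deletion Dnmt3a read 160 to 178 CPM in VF IFN, 162 to 297 in VF V, 176 to 223 in VF AZA and 104 to 193 CPM in VF COMBO libraries, and in VFDM V and VFDM AZA it read 109 to 120 and 83.4 to 107 CPM. The library labelled VFDM IFN 3 thus lay within the VF IFN range and above every other library of the deleted genotype. The fall of 1.44 ± 0.24 on the log2 scale (2.72-fold, adjusted p = 8.92e-05) was -1.26 without that library (adjusted p = 6.48e-04) and -1.08 without COMBO library 3. Reads over the whole gene were counted, so exons outside the deletion contribute to these levels. The labels name no GFP or donor gate, so the share of wild-type cells in each library is not known. Its part in the levels of Dnmt3a and of the transgene rows was not tested. IFN library 3 was also the lowest of its group in the CreERT2 transgene, at 113 CPM beside 212, 244 and 227, and in Ifi204, a member of the interferon-inducible DNA sensor cluster, at 12.5 CPM beside 79.6, 71.6 and 68.9. Counts or changes without this library are given beside many of the results.

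A second property separated the groups. Reads on 4 Y-linked genes (Ddx3y, Uty, Kdm5d and Eif2s3y) summed to 69, 296 and 141 counts in COMBO libraries 2, 3 and 4 and to at most 4 in any of the other 28 libraries of the study. Ddx3y, a Y-linked helicase chosen after its values were seen, stood at 0.568, 12.0 and 2.51 CPM in the COMBO libraries and at 0 in all 4 IFN libraries. The order of the COMBO libraries (3, then 4, then 2) was also that of the globins and of the GFP row, which read 389, 1030 and 514 CPM in COMBO and 390, 387, 251 and 334 CPM in IFN libraries. The labels give no sex for donors or hosts, and the part of these reads in the results below was not tested. GFP rose by 0.92 ± 0.28 (adjusted p = 0.0392), a call that ended without COMBO library 3 (adjusted p = 0.361), IFN library 3 (adjusted p = 0.113) or IFN library 4 (adjusted p = 0.0616), and with limma voom (adjusted p = 0.0847), no filter on low counts (adjusted p = 0.0821) or the 7 libraries fitted alone (adjusted p = 0.1).

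**Figure D1:**
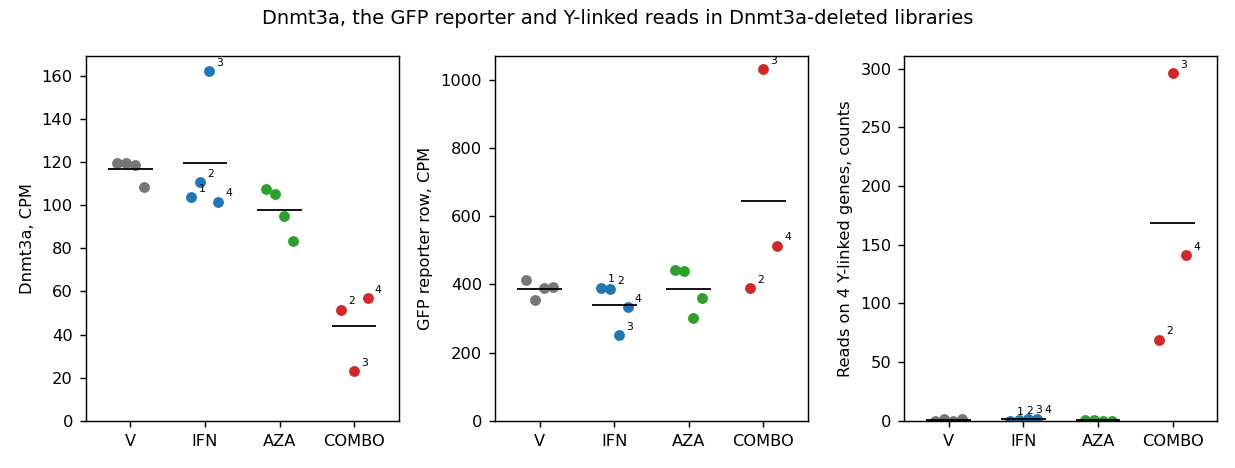
Dnmt3a and the GFP reporter row in CPM, and summed counts of 4 Y-linked genes, in each Dnmt3a-deleted library by treatment (V, vehicle), with group means as lines and library numbers beside IFN and COMBO points. Dnmt3a lies between 23 and 57.0 CPM in COMBO and at 102 CPM or more in IFN libraries, and the Y-linked sums are 69, 296 and 141 in COMBO only.

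Many rows differed between COMBO and IFN libraries, most of them lower in COMBO. Of 22172 rows, 1748 were called (7.88%), 355 higher (1.6%) and 1393 lower (6.28%), with 4827 at an unadjusted p under 0.05. Among the called rows 661 were at least 4-fold lower and 86 at least 4-fold higher. The median over all rows was -0.09. The higher share of the calls, 20.3%, was 32.0% with protein-coding rows only, 32.6% with limma voom and 36.0% with the 7 libraries fitted alone. The count was 1437 without IFN library 3 (254 higher, 1183 lower), of which 1404 were among the 1748, and 1112, 1092 and 1123 without IFN library 1 or COMBO library 3 or 4. The libraries of the groups did not overlap in 4814 rows (21.7%), with COMBO higher in 6.98% and lower in 14.7% of all rows. Among the 12135 rows with a mean log2 CPM of at least 2, from which genes outside the lists were named, 2.56% were called higher and 7.69% lower.

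**Figure D2:**
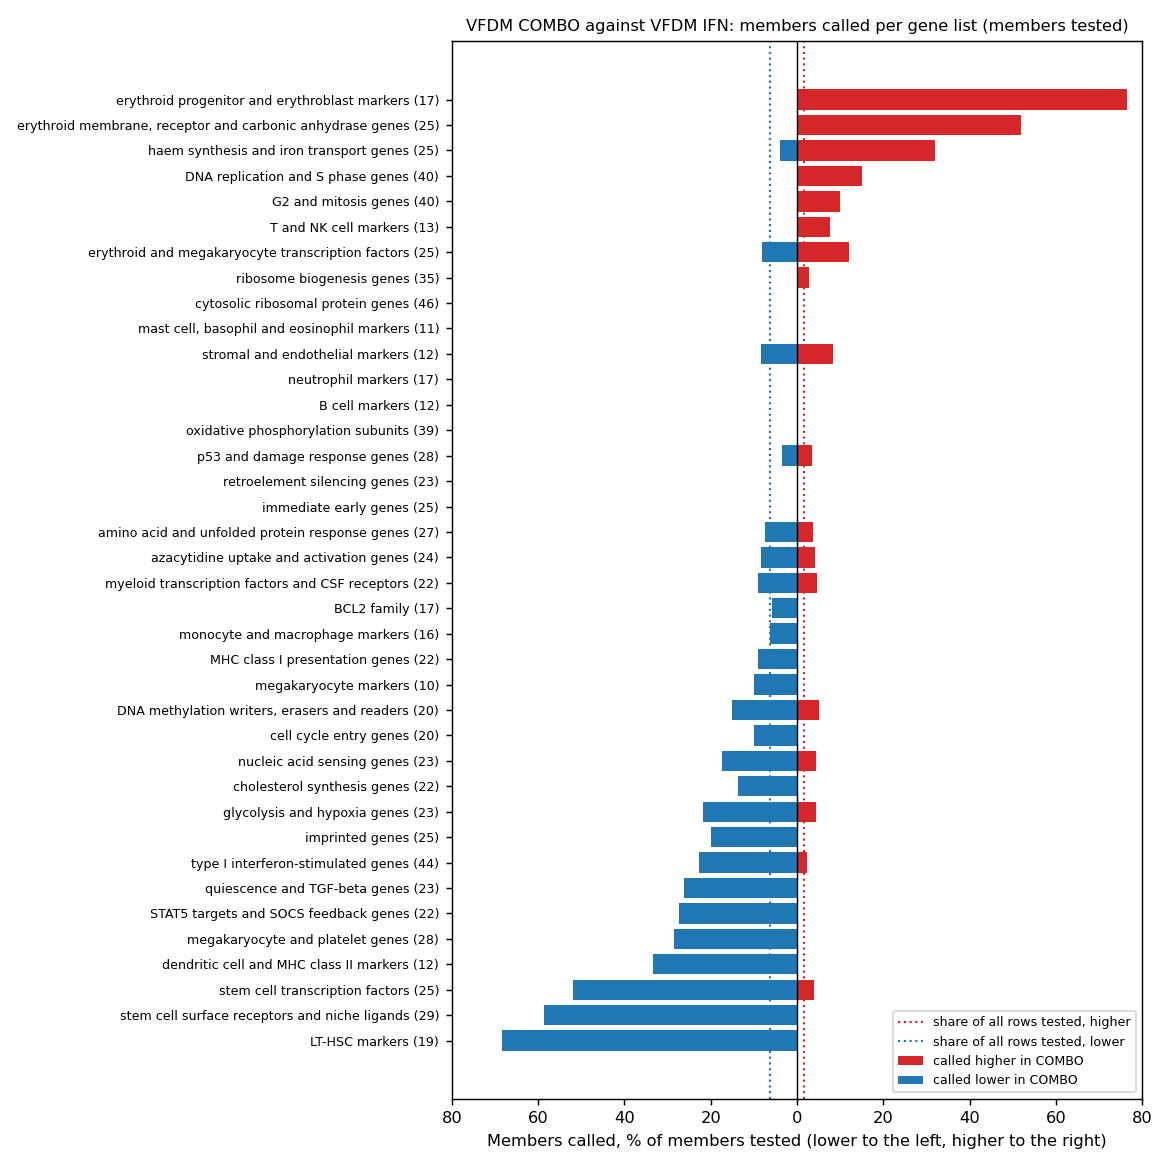
Members of each gene list called higher (right) or lower (left) in VFDM COMBO than in VFDM IFN, as a percentage of the members tested (number in brackets), for lists with at least 10 tested. Dotted lines mark the share over all 22172 rows (1.6% higher, 6.28% lower). Erythroid lists lie at the top and stem cell lists at the bottom.

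Stem cell genes fell together. Of 19 LT-HSC markers 13 were called lower (68.4%, beside 6.28% of all rows) and 0 higher. The median change was -1.95 beside -0.09 over all rows. The list also held Cd48, whose protein the gate excludes, and Flt3. Flt3, among the 13 called lower, is listed as a dendritic cell marker as well. The summed level of the markers was 1778 to 2145 CPM in COMBO and 3003 to 3458 CPM in IFN libraries. In the library-averaged log2(CPM + 1) of these markers the COMBO libraries lay at 4.61 to 4.69, below the 6.18 to 6.38 of IFN, the 6.33 to 6.59 of VFDM vehicle and the 6.08 to 6.45 of VFDM azacytidine alone. The number called was 11 without COMBO library 4 and 13, the same number, without IFN library 3. In bulk RNA, fewer cells of a type and less RNA per cell cannot be told apart.

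Among stem cell transcription factors 13 of 25 fell (52%, beside 6.28% of all rows) and 1, Nfia, rose (4%, beside 1.6%). The median was -0.85. Hlf (ENSMUSG00000003949, chromosome 11, 90336536 to 90390895), a bZIP factor that marks LT-HSCs, read 33.1, 40.2 and 32.8 CPM in COMBO libraries 2, 3 and 4 and 256, 211, 181 and 241 CPM in IFN libraries 1 to 4. All COMBO libraries were far below every IFN library and the 133 to 326 CPM of azacytidine alone, and Hlf fell 6.29-fold (-2.65 ± 0.25, adjusted p = 2.68e-08; -2.74 without IFN library 3). Mecom (ENSMUSG00000027684, chromosome 3, 29951296 to 30548008), the Evi1 locus needed for stem cell maintenance, went from 248, 174, 150 and 219 CPM to 26.6, 43.6 and 33.0 CPM (-2.52 ± 0.32, adjusted p = 4.96e-06). Prdm16, its relative and also a self-renewal factor, chosen after its values were seen, fell from 79.5, 45.6, 54.6 and 68.6 CPM to 4.10, 14.3 and 5.24 CPM (-3.0 ± 0.46, adjusted p = 7.74e-05; -3.68 without COMBO library 3). The ETS factors of the stem cell network fell less. Erg changed by -1.26 ± 0.18 (adjusted p = 1.17e-05) and Fli1 by -1.18 ± 0.16 (adjusted p = 4.96e-06), with no overlap between the groups in either. Mycn, a Myc family factor of resting stem cells, read 72.9, 63.3 and 49.4 CPM against 243, 170, 194 and 204 CPM (-1.71 ± 0.31, adjusted p = 4.1e-04). The list had 9 falls without COMBO library 4 and 13 without IFN library 3, and the rise of Nfia was not called without IFN library 2 or 3 or COMBO library 2 or 4.

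Surface receptors and niche ligands of stem cells fell for 17 of 29 members (58.6%, beside 6.28% of all rows) and rose for 0. Their median was -1.52. Esam (ENSMUSG00000001946, chromosome 9, 37528078 to 37538319), an adhesion molecule of stem and endothelial cells, read 4.32, 2.7 and 5.68 CPM in COMBO libraries and 64.7, 58.2, 52.7 and 56.8 CPM in IFN libraries. That is a 13.6-fold fall with narrow groups (-3.76 ± 0.36, adjusted p = 2.68e-08; -3.81 without IFN library 3). Tie1, an endothelial and stem cell receptor tyrosine kinase, went from 119, 74.7, 91.9 and 117 CPM to 14.7, 7.48 and 6.43 CPM (-3.39 ± 0.39, adjusted p = 1.1e-06). In both Esam and Tie1 every COMBO library was below every IFN library. Ctnnal1, the alpha-catulin gene used as an LT-HSC reporter, fell 5.22-fold (-2.38 ± 0.32), and the adhesion receptor Adgrg1, at 1160 to 1260 CPM in IFN, fell 2.23-fold to 460 to 616 CPM (-1.16 ± 0.16, adjusted p = 7.15e-06).

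Procr (ENSMUSG00000027611, chromosome 2, 155751117 to 155755471), the endothelial protein C receptor used to sort LT-HSCs, was chosen after its values were seen. It read 19, 10.4, 14.8 and 18.7 CPM in IFN libraries and 0.0315, 0.0575 and 0.439 CPM in COMBO libraries. Libraries 2 and 3 of COMBO were below the level of 3 counts, which is 0.0946 and 0.173 CPM there. The change was called (adjusted p = 8.37e-06), and the mean of 15.7 CPM in IFN stood against the highest COMBO library at 0.439 CPM. Fgd5, a guanine nucleotide exchange factor also used as an LT-HSC reporter and chosen after its values were seen, read 0.883, 6.73 and 0.816 CPM against 55.4, 21.0, 23.1 and 47.2 CPM. Its call (-3.78 ± 1.07, adjusted p = 0.0284) ended without IFN library 1 or 4 or COMBO library 2 or 4 (adjusted p = 0.0704, 0.0572, 0.122 and 0.136), as well as with limma voom (adjusted p = 0.075) or no filter (adjusted p = 0.0519). Without COMBO library 3 it was -5.38.

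The genes behind the sort gate did not move alike. Ly6a, which encodes Sca1 and is itself induced by interferon, read 15.5, 18 and 11.6 CPM in COMBO and 63.0, 48.1, 47.7 and 53.2 CPM in IFN libraries (-1.82 ± 0.30, adjusted p = 8.64e-05). The COMBO levels lay near the 12.1 to 15.3 CPM of VFDM vehicle, and azacytidine alone gave 38.1 to 53.7 CPM. Kit, the stem cell factor receptor, changed by -0.12 ± 0.17 (adjusted p = 0.766). Slamf1, which encodes CD150, changed by 0.27 ± 0.22 (adjusted p = 0.544) and Cd48 by 0.87 ± 0.51 (adjusted p = 0.335, but 0.042 with limma voom). Cells were gated on protein, so these are RNA levels within the gate.

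Of 23 genes of quiescence and TGF-beta signalling 6 fell (26.1%, beside 6.28% of all rows) and 0 rose (median -0.21). Mmrn1, a matrix protein of resting stem cells and platelets, went from 224, 167, 171 and 190 CPM to 42.8, 21.1 and 21.1 CPM (-2.73 ± 0.34, adjusted p = 5.19e-06). Trpc6, a calcium channel, went from 115, 96.4, 117 and 117 CPM to 19.7, 17.1 and 25.5 CPM (-2.42 ± 0.29, adjusted p = 1.29e-06). The cell cycle inhibitor Cdkn1c, or p57, which holds stem cells at rest, read 0.252, 2.42 and 1.35 CPM in COMBO and 18.4, 9.12, 5.54 and 19.4 CPM in IFN libraries (-3.31 ± 0.78, adjusted p = 0.00549; -3.98 without COMBO library 3). Its call ended with limma voom (adjusted p = 0.0567). The list held 3 falls without COMBO library 3.

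**Figure D3:**
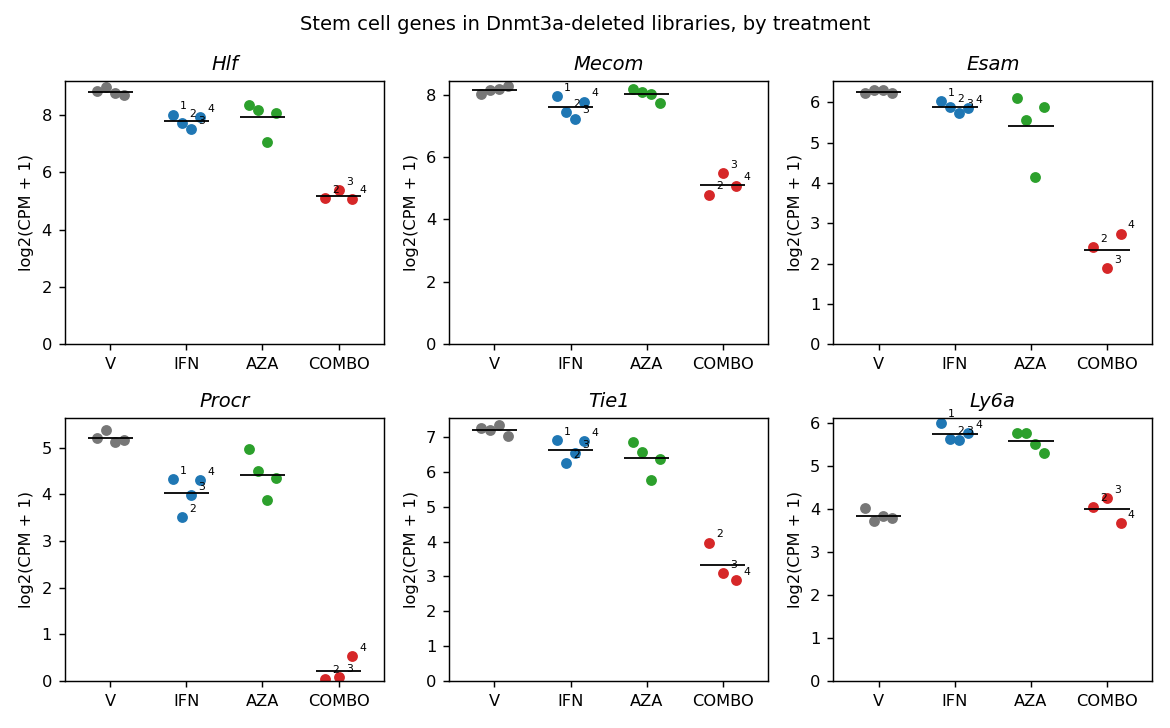
Levels of 6 stem cell genes as log2(CPM + 1) in each Dnmt3a-deleted library under vehicle (V), interferon (IFN), azacytidine (AZA) or both (COMBO), with group means as lines and library numbers beside IFN and COMBO points. In Hlf, Mecom, Esam, Procr and Tie1 the 3 COMBO libraries lie below all libraries of the other 3 treatments, while Ly6a in COMBO lies near vehicle.

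Some of the falls with the smallest p were of genes outside the stem cell lists. Cadps2 (ENSMUSG00000017978, chromosome 6, 23262773 to 23839421), an activator of vesicle release, had the smallest of all. It read 3.12, 4.72 and 2.42 CPM in COMBO and 51.7, 32.1, 40.8 and 47.9 CPM in IFN libraries (-3.67 ± 0.31, adjusted p = 3.36e-09). Appl2, an endosomal adaptor, went from 69.9, 32.4, 43.9 and 43.0 CPM to 3.03, 0.921 and 4.3 CPM (-4.06 ± 0.39, adjusted p = 2.68e-08). Col16a1, a collagen chain, went from 73.4, 41.9, 69.7 and 63.7 CPM to 4.57, 4.72 and 6.74 CPM (-3.53 ± 0.36, adjusted p = 9.69e-08). In all of these the groups were more than 5-fold apart at their nearest libraries. The vesicle scaffold Nbea (-3.12 ± 0.32), the Rac activator Dock1 (-2.73 ± 0.28), the platelet and endothelial receptor Pear1 (-1.97 ± 0.20) and the zinc finger genes Zfp532 (-3.68 ± 0.35) and Zfp608 (-2.24 ± 0.23) fell with adjusted p between 2.68e-08 and 9.69e-08. Zfp532 was -4.32 without COMBO library 4.

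Among called genes with no overlap and a mean log2 CPM of at least 2, the largest falls were of Slc17a8, a vesicular glutamate transporter, Myl10, a myosin light chain, Lama5, a laminin chain, Amotl2, an angiomotin-like junction protein, and Crispld1. Slc17a8 read 0.536, 0.115 and 2.38 CPM in COMBO and 177, 15.4, 28.4 and 106 CPM in IFN libraries. It varied widely in both groups, and its call (-6.23 ± 1.61, adjusted p = 0.0168) ended without COMBO library 2 or 3 (adjusted p = 0.0779 and 0.0877) and with limma voom (adjusted p = 0.537), and was -5.48 without IFN library 1 and -7.73 without COMBO library 4. Myl10 (-4.57 ± 0.78; -3.96 without COMBO library 2) and Lama5 (-4.27 ± 0.97; -5.58 without COMBO library 2) lost the call with limma voom (adjusted p = 0.131 and 0.0901). Crispld1 read 2.40, 0 and 1.19 CPM against 32.5, 14.0, 22.4 and 19.4 CPM (-4.12 ± 0.60, adjusted p = 3.48e-05; -4.98 without COMBO library 2).

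Erythroid genes rose, most of all in COMBO library 3. Of 17 markers of erythroid progenitors and erythroblasts 13 were called higher (76.5%, beside 1.6% of all rows) and 0 lower. Their summed level was 2880, 21900 and 4935 CPM in COMBO libraries 2, 3 and 4 and 567.6 to 644.1 CPM in IFN libraries, so that the smallest COMBO value was above 4 times the largest IFN value. The number called was 8 without COMBO library 3, 9 without IFN library 1, 3 or 4 or COMBO library 4, and 5 without COMBO library 3 and IFN library 3 together. The lineage-negative gate should leave out erythroblasts, and the Y-linked reads given above moved in the same order over these 3 libraries. Whether the erythroid RNA came from the sorted stem cells was not tested.

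Globins showed the widest gap. All 4 adult globin genes tested were called higher, with a median of 7.77, and all 4 were called without COMBO library 3 with a median of 5.95. Hba-a1 (ENSMUSG00000069919, chromosome 11, 32283511 to 32284465) read 480, 7910 and 1390 CPM in COMBO libraries 2, 3 and 4 and 6.62, 4.62, 25.6 and 20.1 CPM in IFN libraries (7.84 ± 1.75, adjusted p = 0.00573; 6.10 without COMBO library 3, adjusted p = 0.0324). The beta globin gene Hbb-bt (ENSMUSG00000073940) read 126, 2350 and 355 CPM against 4.07, 2.56, 10.6 and 6.28 CPM (7.32 ± 1.38, adjusted p = 0.0012; 5.42 without COMBO library 3). Every COMBO library was above every IFN library, with library 3 over 5 times library 4. The alpha copies Hba-a1 and Hba-a2 are near-identical and the beta copies Hbb-bs and Hbb-bt alike, so reads may be split between them. Without COMBO library 3 and IFN library 3 together, 3 of the 4 were called, Hba-a1 not (adjusted p = 0.0608). Without IFN library 3 alone Hba-a1 was 8.31 and Hbb-bt 7.79, and with limma voom they were 6.70 and 5.81.

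Of 25 genes of haem synthesis and iron transport 8 rose (32%, beside 1.6% of all rows) and 1 fell (4%, beside 6.28%). The fall was of Hmox1, which degrades haem, and the list median was 0.52. Without IFN library 3 the counts were 7 and 1, without COMBO library 3 they were 7 and 0, and 3 rose without both. Alas2 (ENSMUSG00000025270, chromosome X, 150547375 to 150570638), the erythroid rate-limiting enzyme of haem synthesis, read 50.8, 1280 and 198 CPM in COMBO and 0.449, 0, 2.36 and 3.08 CPM in IFN libraries (8.48 ± 1.59, adjusted p = 0.0011). It was 6.47 without COMBO library 3 (adjusted p = 0.03), 9.07 without COMBO library 2 and 9.11 without IFN library 4. Fech, ferrochelatase, which puts iron into haem, had the smallest p of all rises. Its levels were 81.9, 376 and 141 CPM against 56.3, 43.5, 46.6 and 33.6 CPM (2.15 ± 0.27, adjusted p = 2.69e-06; 1.36 without COMBO library 3, adjusted p = 7.56e-05; 1.45 with limma voom). Mitoferrin, Slc25a37, read 74.2, 377 and 94.4 CPM against 54.2, 46.2, 48.1 and 42.1 CPM (1.93 ± 0.31, adjusted p = 6.93e-05; 0.88 without COMBO library 3; adjusted p = 0.0705 with the 7 libraries fitted alone). Alad, an earlier enzyme of the pathway, rose by 1.15 ± 0.26 (adjusted p = 0.00433).

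Of 25 erythroid membrane, receptor and carbonic anhydrase genes 13 rose (52%, beside 1.6% of all rows) and 0 fell. All 25 were above 0, with a median of 1.75. The rises numbered 3 without COMBO library 3, 5 without IFN library 1 or 3, and 8 without IFN library 4 or COMBO library 2 or 4. The transferrin receptor Tfrc read 197, 199 and 265 CPM in COMBO and 52.8, 78.0, 75.9 and 90.7 CPM in IFN libraries (1.57 ± 0.29, adjusted p = 5.87e-04; 1.69 without COMBO library 3). Without IFN library 3 it was 1.58, and no COMBO library lay within the IFN range. Epb41, a membrane skeleton gene, read 305, 1170 and 439 CPM against 304, 325, 271 and 276 CPM, so that library 2 lay within the IFN range and the call (1.12 ± 0.22) ended without COMBO library 3 (0.39, adjusted p = 0.094) and with the 7 libraries fitted alone (adjusted p = 0.149). The anion exchanger Slc4a1, chosen after its values were seen, was called at adjusted p = 0.0375 and lost the call without COMBO library 3 (adjusted p = 0.189). Slc4a1 also lost it without any other library except COMBO library 2.

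Erythroid transcription factors were more even across libraries than the globins. Gata1, the master erythroid factor, chosen after its values were seen, read 108, 89.7 and 69.7 CPM in COMBO and 19.4, 50.2, 34.3 and 32.6 CPM in IFN libraries (1.38 ± 0.35, adjusted p = 0.00986; 1.43 without COMBO library 3). Here COMBO library 2 was highest, not library 3. Klf1, the globin gene activator, also chosen after its values were seen, read 93.5, 65.9 and 80.2 CPM against 10.3, 23.7, 6.66 and 12.6 CPM, and the groups did not overlap. Its change of 2.58 ± 0.91 did not pass (adjusted p = 0.0824), though it did with DESeq2 (adjusted p = 0.0378), limma voom (adjusted p = 3.9e-04) and the 7 libraries fitted alone (adjusted p = 0.00238). Epor, the erythropoietin receptor, changed by 1.29 ± 0.75 (adjusted p = 0.329, but 0.0349 with limma voom and 0.0418 with the 7 libraries fitted alone). Of 25 erythroid and megakaryocyte factors 3 rose (12%, beside 1.6% of all rows) and 2 fell (8%, near the 6.28% of all rows). The rises were Gata1, Myb and E2f2 and the falls Fli1 and Cited2. In this list 5 rose without IFN library 2 and 4 without COMBO library 4. Without COMBO library 3 there were 2 rises, and 1 without COMBO library 3 and IFN library 3 together. Myb, a factor of immature and dividing progenitors, rose by 0.74 ± 0.15 (adjusted p = 0.00123). E2f2 lost its call without COMBO library 3 (adjusted p = 0.21).

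**Figure D4:**
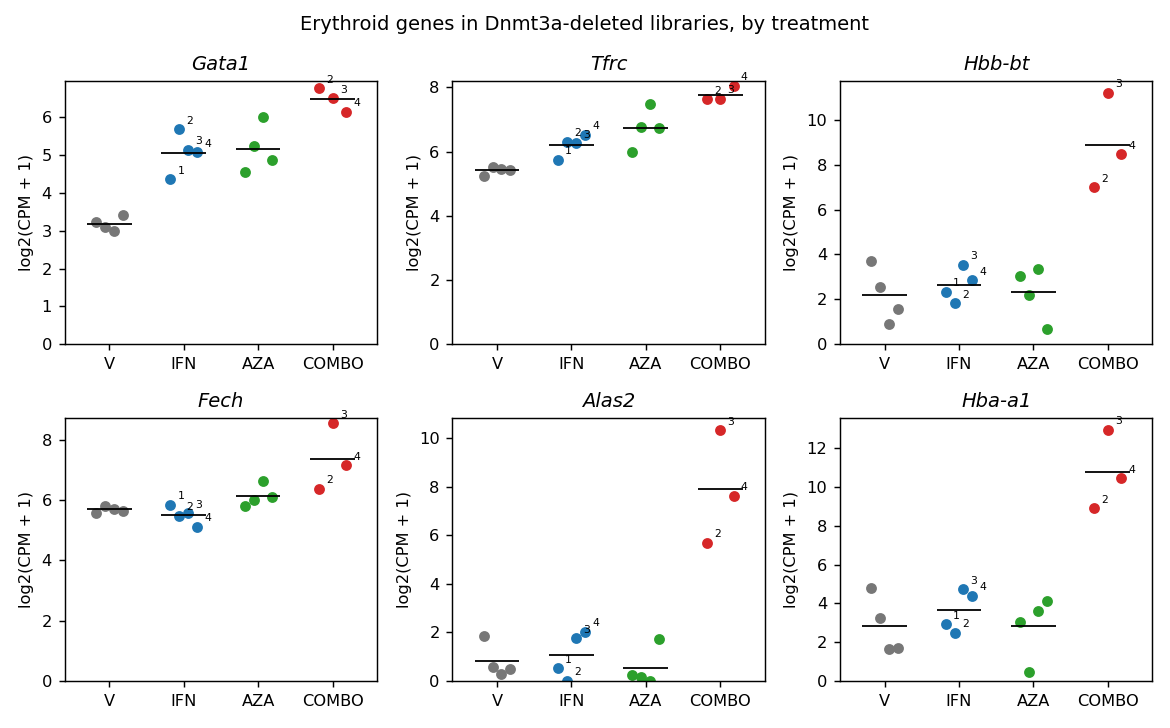
Levels of 6 erythroid genes as log2(CPM + 1) in each Dnmt3a-deleted library under vehicle (V), interferon (IFN), azacytidine (AZA) or both (COMBO), with group means as lines and library numbers beside IFN and COMBO points. COMBO library 3 is highest for Fech, Alas2, Hba-a1 and Hbb-bt, but not for Gata1 or Tfrc, and all COMBO libraries lie above all IFN libraries in the 6 genes.

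Other rises with a small p, Tent5c apart, were more even over the 3 COMBO libraries. Xylt1, which starts glycosaminoglycan chains, read 122, 126 and 109 CPM in COMBO and 34.7, 52.6, 35.4 and 44.5 CPM in IFN libraries (1.51 ± 0.22, adjusted p = 1.86e-05). Ikzf1, the Ikaros factor of lymphoid and early progenitors, read 343, 352 and 296 CPM against 155, 184, 155 and 184 CPM (0.96 ± 0.15, adjusted p = 4.58e-05). Neither had a COMBO library within the IFN range. Mns1 (1.77 ± 0.27), the annexin partner S100a10 (1.22 ± 0.19), the folate enzyme Mthfd1 (1.21 ± 0.19) and the DNA helicase Blm (1.10 ± 0.17) rose with adjusted p between 3.44e-05 and 4.89e-05. Tent5c, a poly(A) polymerase, was uneven, in the order of the globins, with 44.2, 809 and 125 CPM against 8.19 to 10.2 CPM (5.11 ± 0.64, adjusted p = 8.37e-06; 3.22 without COMBO library 3; 3.53 with limma voom).

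Most interferon-stimulated genes were not called. Of 44 tested, 1 was called higher (2.27%, beside 1.6% of all rows), 10 lower (22.7%, beside 6.28%) and 33 were not called. The median was -0.23 beside -0.09 over all rows. Changes below 0 were seen in 35 of the 44 and in 12360 of all 22172 rows, and limma voom called 14 lower. The falls numbered 8 without IFN library 3, 3 without IFN library 1 or COMBO library 4, 5 without IFN library 4, and 6 without IFN library 2 or COMBO library 2 or 3. Irf7, which amplifies the response, changed by -0.09 ± 0.31 (adjusted p = 0.92) and the feedback gene Usp18 by -0.23 ± 0.26 (adjusted p = 0.689). These were chosen after their values were seen. Irf7 was at 115 to 224 CPM in COMBO and 168 to 198 CPM in IFN libraries, beside 9.85 to 16.8 CPM in VFDM vehicle.

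Some members fell clearly. Ifi27, a mitochondrial and nuclear envelope protein, read 18.5, 14.4 and 14.1 CPM in COMBO and 73.9, 43.1, 62.7 and 55.3 CPM in IFN libraries (-1.91 ± 0.26, adjusted p = 6.85e-06), below the 32.7 to 37.7 CPM of VFDM vehicle. Ifitm1, a membrane restriction factor, went from 77.2, 33.8, 57.2 and 62.2 CPM to 11.3, 17.8 and 5.18 CPM (-2.35 ± 0.45, adjusted p = 9.74e-04). Ifit3 read 8.04, 2.65 and 3.07 CPM against 79.2, 44.6, 54.2 and 53.6 CPM (-3.65 ± 0.84, adjusted p = 0.00617; -4.29 without COMBO library 2). The 1 rise was Rsad2, viperin, at 84.4, 632 and 131 CPM against 103, 81.3, 86.0 and 81.3 CPM. It came from COMBO library 3, with library 2 inside the IFN range, and without library 3 it was 0.35 (adjusted p = 0.42). Its call (1.69 ± 0.37, adjusted p = 0.00346) also ended with limma voom (adjusted p = 0.109) and with the 7 libraries fitted alone (adjusted p = 0.199).

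Of 23 nucleic acid sensing genes 4 fell (17.4%, beside 6.28% of all rows) and 1 rose (4.35%, beside 1.6%). There was 1 fall without IFN library 1 or 4 and 2 without IFN library 2 or any COMBO library. The rise was 0 without COMBO library 3, with limma voom or with the 7 libraries fitted alone. Tmem173, which encodes STING, read 9.93, 2.65 and 3.61 CPM against 30.4, 21.6, 23.9 and 24.9 CPM (-2.21 ± 0.41, adjusted p = 5.04e-04; -2.95 without COMBO library 2). The MHC class I list had 2 falls of 22 and 0 rises, 9.09% lower beside 6.28% of all rows, and 0 falls without IFN library 1 or COMBO library 4 and 1 without IFN library 2, 3 or 4 or COMBO library 3. H2-K1 changed by -0.49 ± 0.14 (adjusted p = 0.0263), a call that ended in each fit without 1 library except COMBO library 2 (adjusted p of 0.0676 to 0.215).

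Among DNA methylation genes, 3 of 20 fell (15%, beside 6.28% of all rows) and 1 rose (5%, beside 1.6%). Beside Dnmt3a, the demethylation enzyme Tet1 went from 132, 92.1, 115 and 125 CPM to 48.3, 58.2 and 55.2 CPM (-1.11 ± 0.21, adjusted p = 5.48e-04), with no overlap. Dnmt3b, the other de novo methyltransferase, fell by 0.88 ± 0.26 (adjusted p = 0.0268), a call lost without IFN library 1 or 4 or COMBO library 3 or 4 (adjusted p = 0.103, 0.0668, 0.176 and 0.168). The methyl-CpG reader Mbd2 rose by 0.66 ± 0.15 (adjusted p = 0.00475). Dnmt1, the maintenance enzyme that azacytidine traps as a protein, changed by 0.20 ± 0.18 in RNA (adjusted p = 0.605). Of 24 genes of azacytidine uptake and activation 1 rose (4.17%, beside 1.6% of all rows) and 2 fell (8.33%, beside 6.28%), shares that 1 gene can move past the background. The nucleoside importer Slc29a1 rose by 1.03 ± 0.28 (adjusted p = 0.016, but 0.0735 without COMBO library 4), and the efflux pumps Abcb1a (-2.28 ± 0.45, adjusted p = 8.46e-04) and Abcg2 (-0.61 ± 0.19, adjusted p = 0.0392) fell. The falls numbered 1 without IFN library 1, 3 or 4 or COMBO library 2, and 3 rose without COMBO library 3.

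Genes that DNA methylation is known to silence were few among the rows tested. Only 2 of 20 germline genes, Dazl and Ddx4, had enough counts to be tested, and neither was called or had an unadjusted p under 0.05 (adjusted p = 0.369 and 0.822; 0 called by DESeq2 or limma voom). Of 25 imprinted genes tested 0 rose and 5 fell (20%, beside 6.28% of all rows), Cdkn1c among them. There was 1 fall without COMBO library 4, 2 without COMBO library 3 and 3 without COMBO library 2 or IFN library 1 or 4. Of 23 genes of retroelement silencing 0 were called by edgeR, 3 had an unadjusted p under 0.05, and DESeq2 called 1 and limma voom 2. No methylation was measured in these libraries.

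Some proliferation genes rose by small amounts. Of 40 DNA replication and S phase genes 6 rose (15%, beside 1.6% of all rows) and 0 fell, with 37 above 0 and a median of 0.35. Of 40 G2 and mitosis genes 4 rose (10%, beside 1.6%) and 0 fell, with a median of 0.31. Cyclin E, Ccne1, read 22.2, 25 and 21.4 CPM in COMBO and 6.62, 7.16, 5.39 and 8.19 CPM in IFN libraries (1.74 ± 0.38, adjusted p = 0.00307). The kinetochore gene Knl1 read 222, 292 and 271 CPM against 96.4, 127, 150 and 104 CPM (1.13 ± 0.19, adjusted p = 9.32e-05). Both groups were separate in these genes. The proliferation marker Mki67 read 1360, 1880 and 1980 CPM against 820, 1140, 1470 and 784 CPM, so COMBO library 2 lay below IFN library 3. Its rise of 0.72 ± 0.23 (adjusted p = 0.0458) was lost without IFN library 1 or 4 or COMBO library 3 or 4 (adjusted p = 0.117, 0.11, 0.105 and 0.141) and with limma voom, no filter or the 7 libraries fitted alone (adjusted p = 0.153, 0.107 and 0.0556). Without IFN library 3, the highest of its group in Mki67, the G2 and mitosis list had 8 rises, and it had 2 without IFN library 1 or COMBO library 3. The S phase list had 3 rises without COMBO library 4.

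JAK2 and its targets were described from the transgene downward. The human JAK2 rows were not called, with changes of -0.10 ± 0.25 (exons 3 to 12) and -0.25 ± 0.38 (exons 13 to 25), and mouse Jak2 changed by 0.22 ± 0.12 (adjusted p = 0.328). Of 22 STAT5 targets and SOCS feedback genes, 6 fell (27.3%, beside 6.28% of all rows) and 0 rose (median -0.36). Pim1, a survival kinase, read 64.7, 74.5 and 66.1 CPM in COMBO and 196, 222, 192 and 197 CPM in IFN libraries, 2 narrow and separate groups (-1.56 ± 0.20, adjusted p = 3.92e-06). Cish, a feedback inhibitor, went from 48.3, 21.6, 27.3 and 15.1 CPM to 11.7, 10.8 and 5.80 CPM (-1.58 ± 0.33, adjusted p = 0.00163, but 0.0782 with limma voom). Socs2, which restrains JAK2 signalling, read 9.87, 8.69 and 1.91 CPM against 82.1, 35.5, 79.8 and 64.4 CPM (-3.27 ± 0.76, adjusted p = 0.0075), a call lost without COMBO library 4 (adjusted p = 0.0536) or with limma voom (adjusted p = 0.0678). The list had 3 falls without COMBO library 4 and 5 without IFN library 3. In the BCL2 family 1 of 17 fell (5.88%, near the 6.28% of all rows) and 0 rose. Bcl2, the survival factor, read 78.2, 79.9 and 79.9 CPM against 112, 147, 134 and 132 CPM (-0.72 ± 0.15, adjusted p = 0.00193).

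Of 28 megakaryocyte and platelet genes 8 fell (28.6%, beside 6.28% of all rows) and 0 rose (median -0.76), and 7 fell without IFN library 3. Mmrn1 and Trpc6, given above, were among them. Rap1b, a platelet integrin activator, read 220, 220 and 231 CPM in COMBO and 347, 565, 530 and 455 CPM in IFN libraries (-1.08 ± 0.20, adjusted p = 4.09e-04). Pf4, platelet factor 4, a defining megakaryocyte marker, read 97.7, 33.6 and 84.8 CPM against 127, 262, 273 and 152 CPM and did not pass (-1.50 ± 0.58, adjusted p = 0.12). Of 10 megakaryocyte markers 1, Itgb3, was called lower (10%, beside 6.28% of all rows). Itgb3 lost the call in each fit without 1 of the 7 libraries (adjusted p of 0.051 to 0.193). It also lost it with RLE size factors (adjusted p = 0.0594), no filter (adjusted p = 0.103) and protein-coding rows only (adjusted p = 0.0535). Trib2, a pseudokinase of myeloid and erythroid cells, rose from 12.4, 31.7, 13.5 and 21.4 CPM to 172, 143 and 112 CPM (2.85 ± 0.70, adjusted p = 0.0112).

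Of 46 cytosolic ribosomal protein genes and 39 oxidative phosphorylation subunits, 0 were called by edgeR in either direction, with medians of 0.05 and 0.21. Unadjusted p was under 0.05 for 3 and 2 members, DESeq2 called 1 and 2, and limma voom called 0 and 1. Ribosome biogenesis genes depended on the fit. Of 35, 1 (Utp14a) was called higher by edgeR (2.86%, beside 1.6% of all rows). In this list 31 were above 0, with a median of 0.31 and 10 at an unadjusted p under 0.05. DESeq2 called 5, limma voom 7 and the fits with the 7 libraries alone or protein-coding rows only 6 each. By edgeR 2 were called without IFN library 3 or COMBO library 2, and 3 without COMBO library 3. Of 23 glycolysis and hypoxia genes 1, Hk1, rose (4.35%, beside 1.6% of all rows), not called without IFN library 1, 3 or 4 or any COMBO library. In the same list 5 fell (21.7%, beside 6.28%), among them the glucose transporter Slc2a1 and the phosphofructokinase Pfkp. There were 0 falls without COMBO library 2, 2 without COMBO library 3 or 4, 3 without IFN library 1 or 4 and 4 without IFN library 3. Of 22 cholesterol synthesis genes 3 fell (13.6%, beside 6.28%), Srebf2 among them. Here 0 fell without COMBO library 3 and 1 without COMBO library 4 or IFN library 1 or 4. In p53 and damage response genes (28 tested) 1 rose and 1 fell (3.57% each, beside 1.6% higher and 6.28% lower over all rows). None rose without IFN library 3 or COMBO library 4.

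Markers of other blood and marrow cells were read in the same libraries. Neutrophil markers summed to 738.4 to 1957 CPM in COMBO and 101.2 to 679.1 CPM in IFN libraries, with 0 of 17 called by edgeR, 1 at an unadjusted p under 0.05, 0 by DESeq2 and 3 by limma voom, and S100a8 read 11.8, 278 and 50.3 CPM against 14.2, 10.3, 2.47 and 61.8 CPM. COMBO library 3 was thus the highest for neutrophil as well as erythroid markers. Mast cell, basophil and eosinophil markers summed to 146.4 to 190.0 CPM in COMBO and 18.6 to 66.9 CPM in IFN, with 0 of 11 called by edgeR, 4 at an unadjusted p under 0.05, 0 by DESeq2 and 5 by limma voom. B cell markers summed to 12.8, 98.9 and 24.4 CPM in COMBO and 7.10 to 17.02 CPM in IFN libraries. Of 12, 0 were called by edgeR, 3 had an unadjusted p under 0.05, and DESeq2 called 0 and limma voom 2. T and NK cell markers summed to 60.9 to 87.8 CPM in COMBO and 46.5 to 60.4 CPM in IFN libraries. Of 13, 1 (Nkg7) was called higher (7.69%, beside 1.6% of all rows). Nkg7 lost the call without IFN library 1 or 3 or any COMBO library (adjusted p of 0.0516 to 0.0896). Monocyte and macrophage markers overlapped, at 94.4 to 282.7 and 130.9 to 287.4 CPM. Of 16, 1 was called lower (6.25%, near the 6.28% of all rows). Of 12 MHC class II and dendritic cell markers Flt3, H2-Aa, H2-Ab1 and Cd74 fell (33.3%, beside 6.28% of all rows). There were 0 falls without COMBO library 4, 1 without COMBO library 2 and 2 without COMBO library 3 or IFN library 1 or 4. Among 12 stromal and endothelial markers 1 was called higher (8.33%, beside 1.6% of all rows) and 1 lower (8.33%, near the 6.28% of all rows). The rise was of the collagen gene Col1a1, at 0.0946, 23.7 and 3.83 CPM against at most 0.0866 CPM in IFN libraries (adjusted p = 0.0101). It was not called without COMBO library 3. The fall was of the endothelial sialomucin Emcn, which LT-HSCs also carry. Emcn read 16.8, 7.76, 15.1 and 15.9 CPM in IFN and 0.0315, 0.115 and 0.816 CPM in COMBO libraries (adjusted p = 5.07e-04). The part of these cell types in the results above was not tested.

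The same step in cells with intact Dnmt3a gave 2 calls of 22172 (0.00902%) by edgeR, 1 higher and 1 lower (0.00451% each), with 2490 at an unadjusted p under 0.05 and 196 calls by DESeq2. Without VF COMBO library 4 edgeR called 276, without VF COMBO library 1 58 and without VF COMBO library 2 4. The directions were shared for most genes. Of the 1393 rows called lower in VFDM 82.4% were below 0 in VF, where 55.8% of all rows were, with a median of -0.34, and of the 355 called higher 83.7% were above 0, beside 44.1% of all rows, with a median of 0.38. The difference itself was called for 254 rows (1.15%), 22 higher (0.0992%) and 232 lower (1.05%) in VFDM. The count was 208 without IFN library 3 of VFDM, 444 without COMBO library 3 of VF, 73 with limma voom, 74 with the compared groups alone and 708 with DESeq2.

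Stem cell genes were among the genotype differences. Esam changed by -0.73 in VF and by -3.76 in VFDM, a difference of -3.03 ± 0.43 (adjusted p = 1.84e-04). Hlf changed by -0.83 and -2.65 (difference -1.82 ± 0.32, adjusted p = 0.00165), and Mecom by -0.34 and -2.52 (difference -2.19 ± 0.41, adjusted p = 0.0032). Cadps2 (difference -3.09 ± 0.37, adjusted p = 3.27e-05) and Col16a1 (-3.43 ± 0.45, adjusted p = 1.1e-04) had the smallest p values. Ifi27 changed by 0.01 in VF and -1.91 in VFDM (difference -1.91 ± 0.34, adjusted p = 0.00165). Globins changed by 1.80 to 2.26 in VF and by 7.32 to 8.54 in VFDM, but with wide errors, and no globin difference was called (adjusted p of 0.113 to 0.186). Fech (1.74 ± 0.37, adjusted p = 0.00853), Slc25a37 (1.98 ± 0.42, adjusted p = 0.00862) and Bpgm, which makes the red cell regulator of oxygen release (3.19 ± 0.66, adjusted p = 0.00965), were called. The Dnmt3a change also differed between genotypes (-1.30 ± 0.31, adjusted p = 0.0261).

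**Figure D5:**
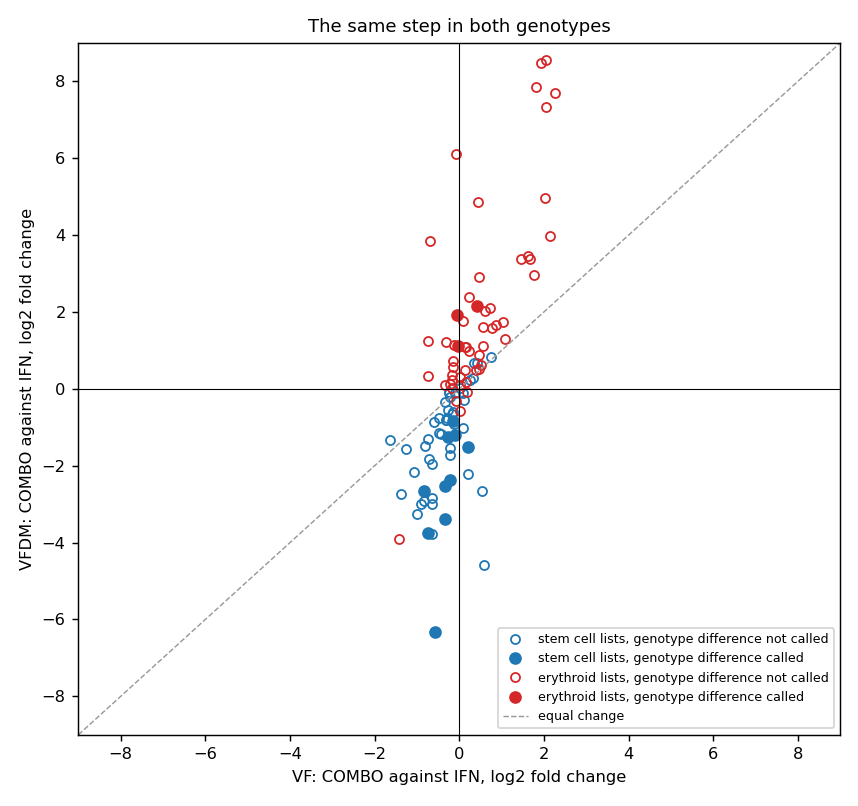
Log2 fold change of COMBO over IFN in VF (x axis) and VFDM (y axis) for tested members of 2 stem cell lists (blue) and 3 erythroid lists (red); filled points have a called difference between genotypes and the dashed line marks equal change. Stem cell genes extend further down and erythroid genes further up in VFDM than in VF, with Hlf at -0.83 in VF and -2.65 in VFDM.

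Start-site windows of 4 of these genes show how much they differ in CpG sites, the target of the methyltransferases that azacytidine traps. They are 300 bases around the annotated start (RefSeq, GRCm38.p6), 5′ to 3′ on the gene's strand, with each CG in capitals. Hlf (chr11:90390868-90391167, minus strand) and Procr (chr2:155750967-155751266, plus strand) fell, and Alas2 (chrX:150547167-150547466, plus strand) and Hbb-bt (chr7:103813874-103814173, minus strand) rose.
Hlf: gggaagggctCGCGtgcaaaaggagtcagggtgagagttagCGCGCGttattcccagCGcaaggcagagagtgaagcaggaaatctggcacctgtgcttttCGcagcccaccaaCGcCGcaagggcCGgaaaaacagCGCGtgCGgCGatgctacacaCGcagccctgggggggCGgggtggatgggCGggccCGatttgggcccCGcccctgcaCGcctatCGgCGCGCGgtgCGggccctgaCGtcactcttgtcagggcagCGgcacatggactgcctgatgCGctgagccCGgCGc
Procr: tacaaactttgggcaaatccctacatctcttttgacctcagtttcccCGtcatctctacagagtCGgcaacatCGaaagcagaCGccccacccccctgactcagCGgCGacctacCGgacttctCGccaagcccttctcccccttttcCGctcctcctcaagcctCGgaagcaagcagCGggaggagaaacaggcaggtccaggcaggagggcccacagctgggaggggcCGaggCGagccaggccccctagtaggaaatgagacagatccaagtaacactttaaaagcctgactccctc
Alas2: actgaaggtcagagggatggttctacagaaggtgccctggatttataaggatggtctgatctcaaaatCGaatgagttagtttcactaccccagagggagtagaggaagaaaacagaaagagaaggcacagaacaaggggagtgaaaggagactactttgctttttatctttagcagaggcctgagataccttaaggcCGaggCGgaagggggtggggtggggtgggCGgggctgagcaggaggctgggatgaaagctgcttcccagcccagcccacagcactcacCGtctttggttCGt
Hbb-bt: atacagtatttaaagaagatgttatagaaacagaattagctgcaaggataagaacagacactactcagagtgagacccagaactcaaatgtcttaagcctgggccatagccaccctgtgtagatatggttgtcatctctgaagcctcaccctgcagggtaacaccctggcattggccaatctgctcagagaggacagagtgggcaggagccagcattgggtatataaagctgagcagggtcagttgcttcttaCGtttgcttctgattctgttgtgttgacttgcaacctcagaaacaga
The windows hold 30, 13, 6 and 1 CpG sites in this order. The median was 7 (quartiles 3 and 20) over all 32851 such windows. Over the 15008 windows of 11793 genes tested here it was 19 (quartiles 8 and 28). For genes called higher the median was 20.5 (quartiles 7 and 29) and for genes called lower 17 (quartiles 7 and 28). The order of the 4 windows shown is thus not that of the called genes at large. The Alas2 window holds the letters AGATAA on either strand, a motif that the Gata1 family binds, and the other 3 windows do not. It is in 11.2% of all windows and 7.2% of those of tested genes. CCNCNCCC, a motif of KLF factors, stands on either strand in all 4 windows and in 49.5% of all windows and 65.2% of those of tested genes. Windows were matched for only 19 of 30 stem cell list genes called lower and 18 of 26 erythroid list genes called higher, too few to compare the lists.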

How the data were processed

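Bulk RNA-seq gene counts deposited by the authors were used (55492 rows, 31 libraries); per the labels, RNA was extracted with a PicoPure kit and stranded SMART-Seq libraries were made. The submitters' processing notes list featureCounts, R 4.3.0, STAR 2.7.10a, FastQC 0.11.5 and the build mm10. The sources used here do not state the strand setting, the annotation or how multi-mapping reads were treated, so overlapping, antisense and near-identical genes are uncertain. Symbols and positions came from GENCODE vM21 by gene ID (55227 rows matched, 5 are transgene rows).

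In R 4.3.3, edgeR 4.0.16 was run on the counts as deposited: TMM factors, filterByExpr (10 reads, 15 in total), robust quasi-likelihood fit of all 31 libraries with 1 mean per group, two-sided tests, and Benjamini-Hochberg adjustment over 22172 rows. The SE is the log2 fold change divided by the square root of F. CPM use TMM-scaled library sizes. Named were, in each direction, the 10 genes with the smallest p and the 5 with the largest fold among called genes whose groups did not overlap, whose log2 CPM averaged 2 or more and which had a proper symbol, plus up to 4 per list and 5 per direction for the genotype difference; others are marked. The genes, lists and groups were chosen with earlier results of these data known. Alternatives were RLE factors, no filter, protein-coding rows, DESeq2 1.42.0, limma 3.58.1 voom, a replicate block, the compared groups alone and leaving out libraries; leaving out IFN 3 and COMBO 3 together was chosen after seeing the data. The fit was tested on simulated counts. Some genes that met the naming rule are not reported here.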

Additional observations from a re-analysis of the deposited data

Results flagged for a closer look

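The change from IFN to COMBO differed between VFDM and VF, by the test of the difference itself, for 30 of 111 genes considered for naming. Of these 22 were more negative and 8 more positive in VFDM. Over all rows 1.15% differed, 0.0992% higher and 1.05% lower in VFDM. Genes were considered partly for a small p in VFDM or for a called difference. The count and its split thus follow in part from that choice. Among stem cell genes the log2 differences (VFDM minus VF, ± SE) were -1.82 ± 0.32 for Hlf, -2.19 ± 0.41 for Mecom, -0.99 ± 0.23 for Erg, -3.03 ± 0.43 for Esam, -3.04 ± 0.48 for Tie1 and -2.17 ± 0.41 for Ctnnal1. Procr and Emcn gave -5.75 ± 0.97 and -4.67 ± 1.14, with 2 VFDM COMBO libraries under the level of 3 counts for Procr and for Emcn. Other genes led by small p values gave -3.09 ± 0.37 for Cadps2, -2.98 ± 0.42 for Zfp532, -3.40 ± 0.46 for Appl2, -2.75 ± 0.39 for Nbea, -1.14 ± 0.26 for Pear1, -1.99 ± 0.30 for Zfp608 and -2.24 ± 0.36 for Dock1. Col16a1 gave -3.43 ± 0.45, Crispld1 -4.05 ± 0.73 and Cep170b, a centrosome gene, -2.60 ± 0.36. Cited2 gave -0.98 ± 0.25, Ifi27 -1.91 ± 0.34, Cish -1.94 ± 0.43 and Dnmt3a -1.30 ± 0.31.

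More positive in VFDM were the red cell genes Fech (1.74 ± 0.37), Slc25a37 (1.98 ± 0.42), Bpgm (3.19 ± 0.66) and Epb41 (1.15 ± 0.30), with Tent5c (4.63 ± 0.81) and Rsad2 (2.26 ± 0.50). In these 6 genes VFDM COMBO library 3 held the highest level of its group. The predicted genes Gm13340 (2.01 ± 0.39) and Gm6767 (0.94 ± 0.19) complete the list.

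Within VFDM IFN, 1 library of 4 stood apart for 8 of the 111 genes considered for naming. Its gap to the nearest library, as a share of the group's range, was above Dixon's critical value at the 95% level. Chance alone marks about 1 group in 20, and 8 of 111 is near that rate. Library 3 was highest for Dnmt3a (0.85) and H2-K1 (0.909) and lowest for Ifi204 (0.841). Its Dnmt3a level was the reason for the repeats without it, so that mark adds no separate support. Library 2 was highest for S100a10 (0.973) and Pim1 (0.833) and lowest for Trpc6 (0.903). Library 4 was highest for E2f2 (0.859) and Gm6767 (0.923).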

How the results depend on the processing

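Of the 97 called genes considered for naming, 0 changed sign under the alternatives run, but the split of calls did change. The 1748 calls of VFDM COMBO against VFDM IFN became 2670 with DESeq2, 591 with a replicate block, 960 without IFN library 3 and COMBO library 3 together, and 1092 to 1451 when 1 library was left out in turn, while the other settings gave 1472 to 1990. The 2 calls of VF COMBO against VF IFN became 196 with DESeq2, 1 with protein-coding rows, 1 with limma voom, 3 with the replicate block and 1 to 276 when 1 library was left out. The 254 genotype differences became 708 with DESeq2, 73 with limma voom, 74 with the compared groups alone, 4 with the replicate block and 176 to 444 when 1 library was left out. Replicate numbers did not pair the libraries: same-numbered VFDM libraries had correlations of deviations of 0.00991, -0.0417 and -0.0157, none the highest of its COMBO library. Under the block 32.8% of the calls were higher, beside 20.3%. The genotype differences, 22 higher and 232 lower, were 2 and 2 under the block, where the median over all rows was 0.026 beside -0.069. For VF, with 1 higher and 1 lower, the split was 65 and 131 with DESeq2, 39 and 19 without VF COMBO library 1 and 81 and 195 without VF COMBO library 4. Calls of the 97 genes were lost by 42 with the block, 20, 18 and 12 without COMBO libraries 3, 4 and 2, 14, 6, 6 and 14 without IFN libraries 1 to 4, 26 without COMBO library 3 and IFN library 3 together, 14 with limma voom, 9 without the filter, 9 with the compared groups alone, 1 with RLE factors, 1 with protein-coding rows and 0 with DESeq2. Depth limits genes near 3 counts, such as Procr in COMBO.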
